A study of Equus caballus with 4 samples.

Results

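The WNT ligands, their Frizzled receptors and low-density lipoprotein receptor-related co-receptors, the secreted Dickkopf and Frizzled-related antagonists, and the intracellular core of the pathway were followed in equine satellite cells exposed to gamma-oryzanol (GO), a phytochemical of rice bran. A gene was taken when the array named it WNT, FZD, SFRP or DKK with a number, or *lrp5*, *lrp6*, *axin1*, *axin2*, *lef1*, *tcf7*, *tcf7l1*, *tcf7l2* or *ctnnb1*. That gave 31 genes with 59 probes, of 13350 named genes and 43603 probes. Each gene was described by its brightest probe, that with the highest mean log2 signal over both channels of all arrays. No probe bore the names *lef1* or *tcf7l2* in the gene name column.

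The cells came from *semitendinosus* muscle of young colts, and the methods state that a single cell line with the best viability and fusion was chosen. GO-treated cells received 0.125 μM GO for 24 h from the end of the second day in differentiation medium, and control cells received the vehicle alone, 0.04 μl/ml DMSO, so that both groups were on day 3 of differentiation and both carried DMSO. On each of 4 two-color arrays, RNA of GO-treated cells (Cy5) and RNA of control cells (Cy3) were hybridized together. The dyes were not swapped, so that a dye bias of single probes and a response to GO cannot be told apart. The labels call the arrays biological replicates, but neither they nor the methods tie an array to a horse or culture, so the p-values measure the spread between these samples only.

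WNT proteins are secreted glycoproteins that bind a Frizzled receptor together with the co-receptor LRP5 or LRP6. In the canonical branch this stops the destruction complex, built on AXIN1 or AXIN2, from degrading β-catenin, the product of *ctnnb1*, which then enters the nucleus and activates target genes with TCF and LEF factors. Dickkopf proteins act on the co-receptors and Frizzled-related proteins bind WNTs outside the cell, and in skeletal muscle the pathway is known for its part in myoblast differentiation and in the regeneration of fibers.

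Of 45220 spots, 43803 were not control spots. Probes well above background made up 63.5 to 68.9% in control cells and 57.4 to 67.0% in GO-treated cells, no spot was saturated, and 10 to 19 spots on an array were outliers. All 9 muscle cell markers present were well above background in the control cells, from the progenitor factor *myf5* to the embryonic myosin *myh3*. None of 4 adipocyte and 5 endothelial markers was above background in any control channel, whereas all 7 fibroblast markers were, as were 2 of 5 leukocyte markers, with *cd3e*, *cd79a* and *itgam* not above background. With 4 arrays, the precision of each value is limited by their number.

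A gene was tested when its brightest probe was well above background in one and the same channel on all 4 arrays. Of the 31 genes, 17 met this filter (54.8%), beside 9058 of all 13350 named genes (67.9%). Among the ligands 6 of 15 genes did, among the Frizzled receptors 3 of 5, among the co-receptors 2 of 2, among the secreted antagonists 3 of 4, among the destruction complex scaffolds 2 of 2 and among the nuclear factors 1 of 3. WNT ligands thus made up 9 of the 14 genes that could not be tested.

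**Figure D1:**
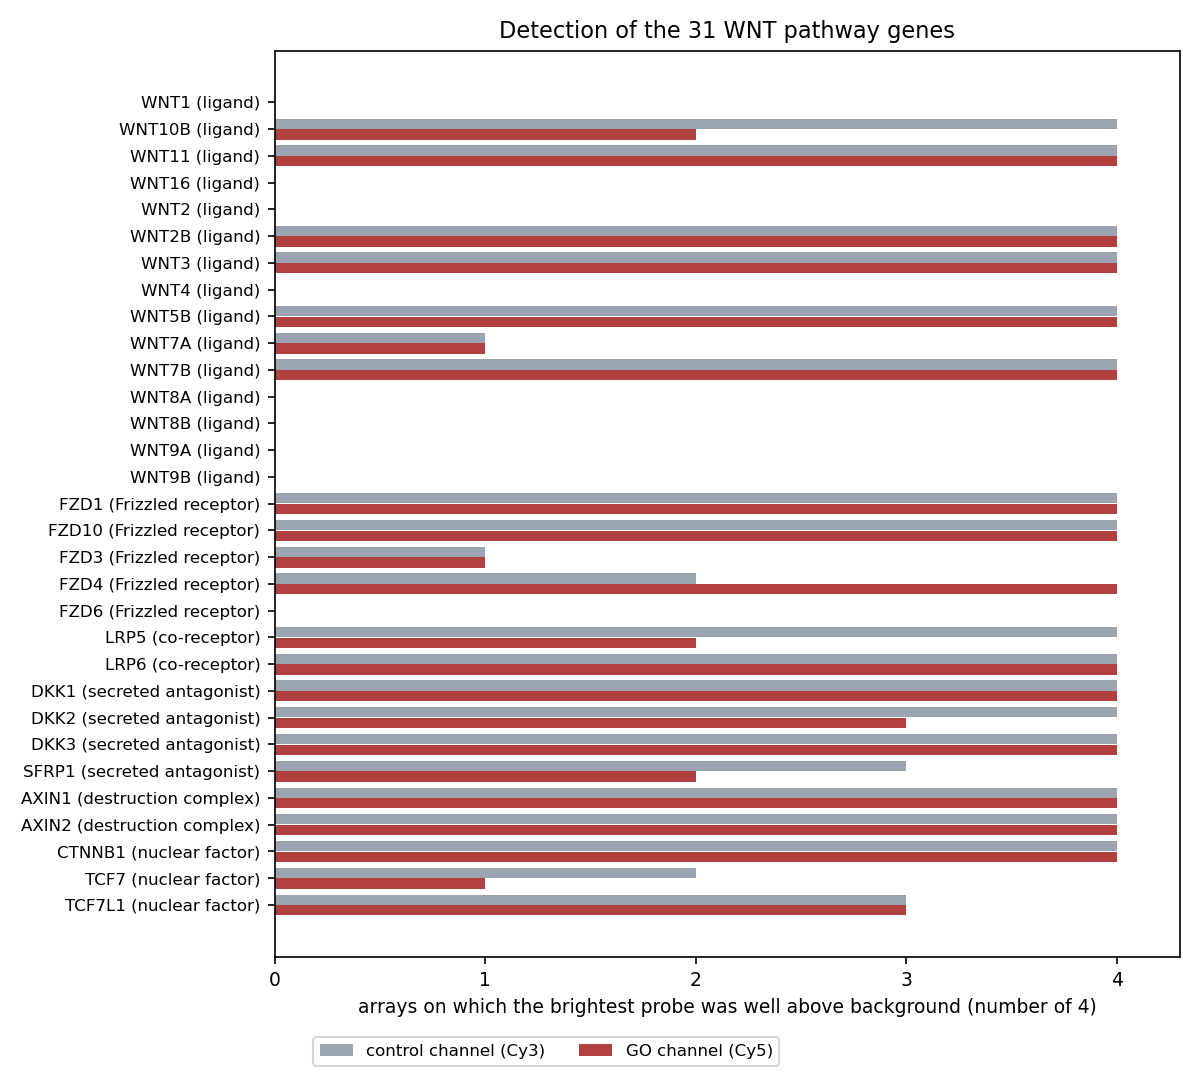
Number of arrays, of 4, on which the brightest probe of each of the 31 genes was well above background, for control cells (Cy3, gray) and GO-treated cells (Cy5, red). The genes *wnt1*, *wnt16*, *wnt2*, *wnt4*, *wnt8a*, *wnt8b*, *wnt9a*, *wnt9b* and *fzd6* have no bar, as their probes were well above background on 0 arrays in either channel.

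The untested genes were *wnt1*, *wnt2*, *wnt4*, *wnt7a*, *wnt8a*, *wnt8b*, *wnt9a*, *wnt9b*, *wnt16*, *fzd3*, *fzd6*, *sfrp1*, *tcf7* and *tcf7l1*. The ratio of *wnt4*, *wnt8a* and *wnt8b* was 0 on every array, which is the value given when neither channel exceeds its background. *Wnt7a* and *fzd3* were well above background on 1 array in each channel, *tcf7* on 2 arrays in control and 1 in GO-treated cells, *sfrp1* on 3 and 2, and *tcf7l1* on 3 and 3. No fold is given for these genes. The 5 probes each of *fzd3*, *wnt4*, *sfrp1* and *tcf7* gave little added information, since their positions are shifted by at most 6 bases.

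GO-treated and control cells differed in 2 of the 17 tested genes (FDR ≤ 0.05 and fold change ≥ 1.3). *Dkk1*, a secreted antagonist, was higher in GO-treated cells and *fzd10*, a Frizzled receptor, was lower. Of all 9058 tested genes, 8.7% passed both thresholds, 3.33% with higher and 5.37% with lower expression, so the 2 members stood close to the background share. By the adjusted p alone 3 members passed, *ctnnb1* being the third, against 17.3% of all genes, and 9 of 17 members had an unadjusted p under 0.05 in limma, against 34.8% of all genes. In RNA of whole cultures, a change in the number of cells of a type and a change in RNA per cell cannot be told apart.

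The log2 ratio (GO over control) of the 17 genes had a median of -0.09, beside 0.00 for all tested genes, and 11 of the 17 means lay below 0. That median stayed below 0 in every setting tried, between -0.13 and -0.04, but several settings leave the ratios unchanged. With normexp and loess 8 means lay above 0 and 9 below. In 8 of 17 genes (47.1%) all 4 arrays had the same sign, as in 42.3% of all genes. The median log2 signal of the tested members was 6.80, against 8.23 for all tested genes. Their SD over the 4 arrays had a median of 0.21, against 0.15 for all tested genes.

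**Figure D2:**
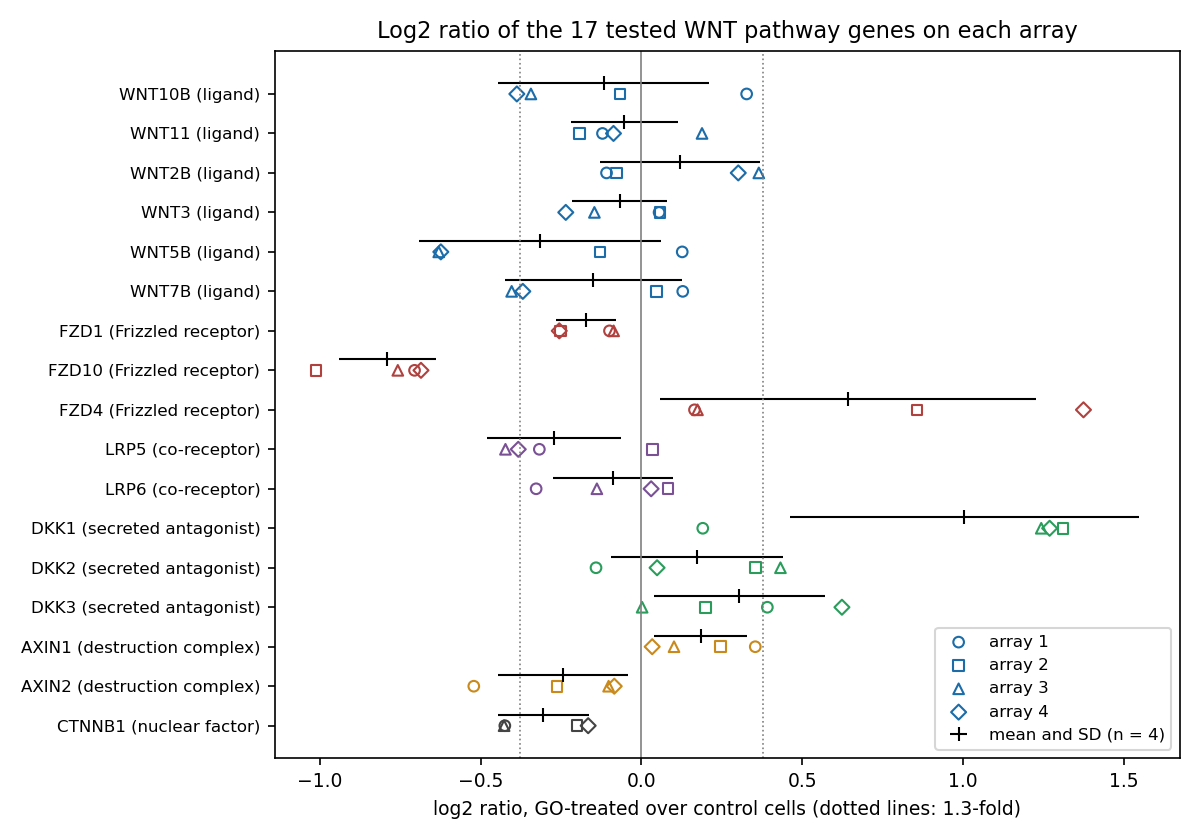
Log2 ratio (GO over control) of the 17 tested genes, grouped by role, with 1 symbol per array and the mean and SD (n = 4) as a cross and line. All 4 arrays of *fzd10* lie beyond the left 1.3-fold line, from -1.01 to -0.69, whereas 3 arrays of *dkk1* lie between 1.24 and 1.31 and array 1 at 0.19.

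Among the Frizzled receptors, *fzd10* had the clearest difference. The array carried 2 probes for it on the minus strand of EquCab1, on the unplaced sequence chrUn, both designed to the transcript ENSECAT00000001607. They are shown because this was the only member with 2 probes past both thresholds, which 8.94% of the 26832 tested probes passed. The capitals mark the 17 bases that the probes share.
*fzd10*, brightest probe, chrUn:198524766-198524825: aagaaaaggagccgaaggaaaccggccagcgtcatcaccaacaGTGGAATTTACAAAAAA
*fzd10*, other probe, chrUn:198524723-198524782: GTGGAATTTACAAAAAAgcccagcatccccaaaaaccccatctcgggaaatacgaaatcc

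The brightest *fzd10* probe had processed signals of 151, 167, 148 and 125 in control cells on arrays 1 to 4, and of 92.3, 82.9, 87.3 and 77.8 in GO-treated cells. The GO signal was the lower on all 4 arrays, and 42.3% of all tested genes had the same sign on all 4. Its log2 ratios were -0.71, -1.01, -0.76 and -0.69, with a mean of -0.79 ± 0.15 (SD, n = 4, 95% interval -0.97 to -0.61), a 1.73-fold lower level with an adjusted p of 0.00288 in limma. Array 2 was the lowest and the other 3 lay within a narrow band. On the second probe the log2 ratios were -1.04, -1.14, -0.90 and -0.79, with a mean of -0.97 (adjusted p = 0.00188). Since the probes overlap they are not independent measurements. After normexp background correction with loess the log2 ratio of the brightest probe was -0.47 (adjusted p = 0.0176), and with a plain one-sample test the call was lost (adjusted p = 0.0649).

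*Fzd1* and *fzd4*, the other tested receptors, did not pass the test. *Fzd1*, the brightest tested receptor of the 31 genes, had log2 ratios of -0.10, -0.25, -0.09 and -0.26, with a mean of -0.17 ± 0.09 (adjusted p = 0.0975). The 4 arrays all lay below 0, in 2 close pairs. *Fzd4*, known as a receptor of norrin besides WNTs, had log2 ratios of 0.16, 0.86, 0.17 and 1.37, with a mean of 0.64 ± 0.59 (adjusted p = 0.0743). Arrays 2 and 4 were high and arrays 1 and 3 near 0, and the probe was well above background on 2 of 4 arrays in control cells, so that it entered the test through the GO channel. With arrays weighted by quality it passed (log2 ratio 0.73, adjusted p = 0.0354), whereas its log2 ratio was 0.19 with normexp and loess and 0.40 without array 4.

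Neither co-receptor passed the test. *Lrp5* had log2 ratios of -0.32, 0.035, -0.42 and -0.38, with a mean of -0.27 ± 0.21 (adjusted p = 0.0777). Array 2 stood above the others, and the probe was well above background on 4 arrays in control and on 2 in GO-treated cells. Without lowess dye normalization *lrp5* passed both thresholds, at -0.41 (adjusted p = 0.0349), whereas with normexp and loess it was at -0.059. *Lrp6* had log2 ratios of -0.33, 0.082, -0.14 and 0.030, with a mean of -0.09 ± 0.19 (adjusted p = 0.482). Its arrays lay on both sides of 0, and the means of its 4 probes ran from -0.09 to 0.08, so that it showed no stable direction.

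Of the secreted antagonists, *dkk1* rose. DKK1 binds LRP5 and LRP6 and keeps them from forming the complex with WNT and Frizzled. It had 1 probe, on the plus strand of EquCab1 and designed to NM_001267802, which is shown because the result rests on this single sequence, in lower case throughout as no part of it is singled out.
*dkk1*, only probe, chr1:42190204-42190263: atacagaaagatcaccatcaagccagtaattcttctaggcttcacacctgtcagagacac

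The processed signals of *dkk1* were 121, 58.4, 117 and 91.8 in control cells on arrays 1 to 4, and 138, 145, 276 and 221 in GO-treated cells. The GO signal was the higher on every array, but the lowest GO signal and the highest control signal, 138 and 121, both came from array 1. The log2 ratios were 0.19, 1.31, 1.24 and 1.27, with a mean of 1.00 ± 0.54 (SD, n = 4, 95% interval 0.55 to 1.46), a 2.00-fold higher level with an adjusted p of 0.0184 in limma. Arrays 2 to 4 had nearly equal ratios and array 1 was far lower. Without array 1 the log2 ratio was 1.27 (adjusted p = 0.00607 in limma). Without array 2 it was 0.90 (adjusted p = 0.0742) and without array 3 it was 0.92 (adjusted p = 0.0668), so that the call was lost. It was also lost with no filter on dim probes (adjusted p = 0.124), when the channels were treated as separate samples (adjusted p = 0.143) and under the plain one-sample test (adjusted p = 0.150).

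*Dkk2* and *dkk3* had positive means that did not pass the test. *Dkk3*, a divergent member of the family and the brightest tested antagonist, had log2 ratios of 0.39, 0.20, 0.0020 and 0.62, with a mean of 0.30 ± 0.27 (adjusted p = 0.0892). *Dkk2* had log2 ratios of -0.14, 0.35, 0.43 and 0.048, with a mean of 0.17 ± 0.27 (adjusted p = 0.280). All 3 Dickkopf means were above 0 in every setting that gave them a value, but several settings leave the mean unchanged. Array 1 was below 0 for *dkk2* and array 3 was at 0 for *dkk3*.

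**Figure D3:**
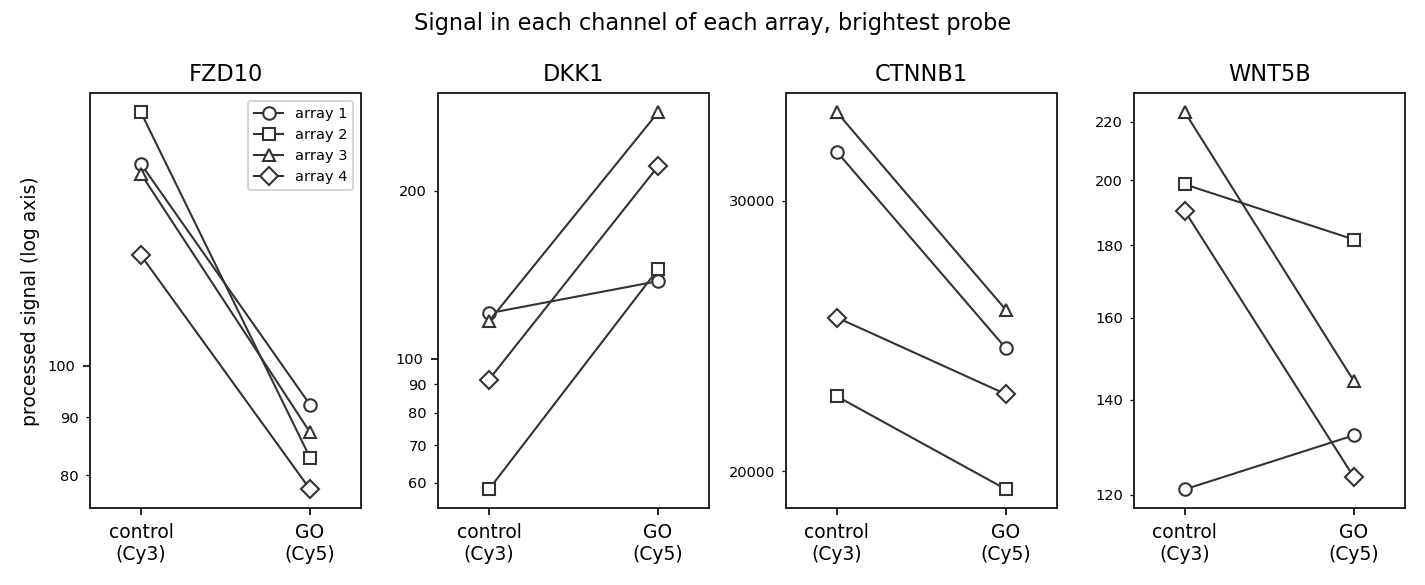
Processed signal (log axis, a separate scale in each panel) of the brightest probe of *fzd10*, *dkk1*, *ctnnb1* and *wnt5b* in control cells (Cy3) and GO-treated cells (Cy5), with a line for each of the 4 arrays. The lines of *fzd10* all fall, those of *dkk1* all rise but that of array 1 only from 121 to 138, and those of *wnt5b* run both ways.

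No ligand passed the test, and 0 of 6 had an unadjusted p under 0.05 in the main limma fit or in the plain one-sample test. In other limma fits 1 did with normexp and loess, 1 with array weights and 2 without array 1. The largest mean in size was that of *wnt5b*, a ligand of the noncanonical branch, with log2 ratios of 0.13, -0.13, -0.63 and -0.62 and a mean of -0.31 ± 0.38 (adjusted p = 0.155). *Wnt7b*, the brightest tested ligand, had log2 ratios of 0.13, 0.046, -0.40 and -0.37, with a mean of -0.15 ± 0.28 (adjusted p = 0.360). *Wnt10b*, known for holding back adipogenesis in myoblasts, had log2 ratios of 0.33, -0.067, -0.34 and -0.39, with a mean of -0.12 ± 0.33 (adjusted p = 0.535). In these 3 ligands arrays 3 and 4 lay together and below arrays 1 and 2, and for *wnt10b* the GO channel was well above background on 2 of 4 arrays. *Wnt2b* ran the other way, with log2 ratios of -0.11, -0.077, 0.36 and 0.30 and a mean of 0.12 ± 0.25 (adjusted p = 0.428). Its signal on array 1 was 157 in control and 146 in GO-treated cells, against 31.4 to 42.4 and 38.6 to 51.2 on arrays 2 to 4, so that array 1 stood apart in both channels and not in their ratio.

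The remaining tested ligands lay near 0. *Wnt3*, a canonical ligand, had log2 ratios of 0.055, 0.057, -0.15 and -0.24, with a mean of -0.07 ± 0.15 (adjusted p = 0.549). *Wnt11*, a noncanonical ligand, had log2 ratios of -0.12, -0.19, 0.19 and -0.087, with a mean of -0.05 ± 0.17 (adjusted p = 0.664). With normexp and loess both means moved just above 0.

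Neither scaffold of the destruction complex passed the test. *Axin2*, also a widely used target gene of the canonical branch, had log2 ratios of -0.52, -0.26, -0.10 and -0.085, with a mean of -0.24 ± 0.20 (adjusted p = 0.0978). *Axin1* had log2 ratios of 0.35, 0.25, 0.10 and 0.033, with a mean of 0.18 ± 0.14 (adjusted p = 0.122). On these brightest probes the 4 arrays of *axin2* were all below 0 and those of *axin1* all above it. In both genes array 1 was the farthest from 0. The second probe of *axin1*, shifted by 1 base, had log2 ratios of 0.52, 0.12, 0.25 and -0.051, with a mean of 0.21 (adjusted p = 0.170). The second probe of *axin2* did not meet the filter. With normexp and loess *axin2* was at -0.091 and *axin1* at 0.046.

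*Ctnnb1* passed the adjusted p but not the fold threshold. Its brightest probe had signals of 22379 to 34251 in control cells and of 19470 to 25471 in GO-treated cells, ranges that overlap, although the GO signal was the lower on every array. The log2 ratios were -0.42, -0.20, -0.43 and -0.17, with a mean of -0.30 ± 0.14 (adjusted p = 0.0333), in which arrays 1 and 3 were the lower pair. Of its 5 probes on chromosome 16, 4 overlap in steps of 20 bases and had means between -0.30 and -0.20. The fifth, which lies apart from them and is dimmer, had log2 ratios of -0.28, -0.47, -0.61 and -0.38, with a mean of -0.43 (adjusted p = 0.0121), and passed both thresholds. Without lowess dye normalization the 4 overlapping probes had means of 0.02 to 0.06 and the fifth one of -0.37 (adjusted p = 0.0149), so the direction of the bright probes depended on that step.

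**Figure D4:**
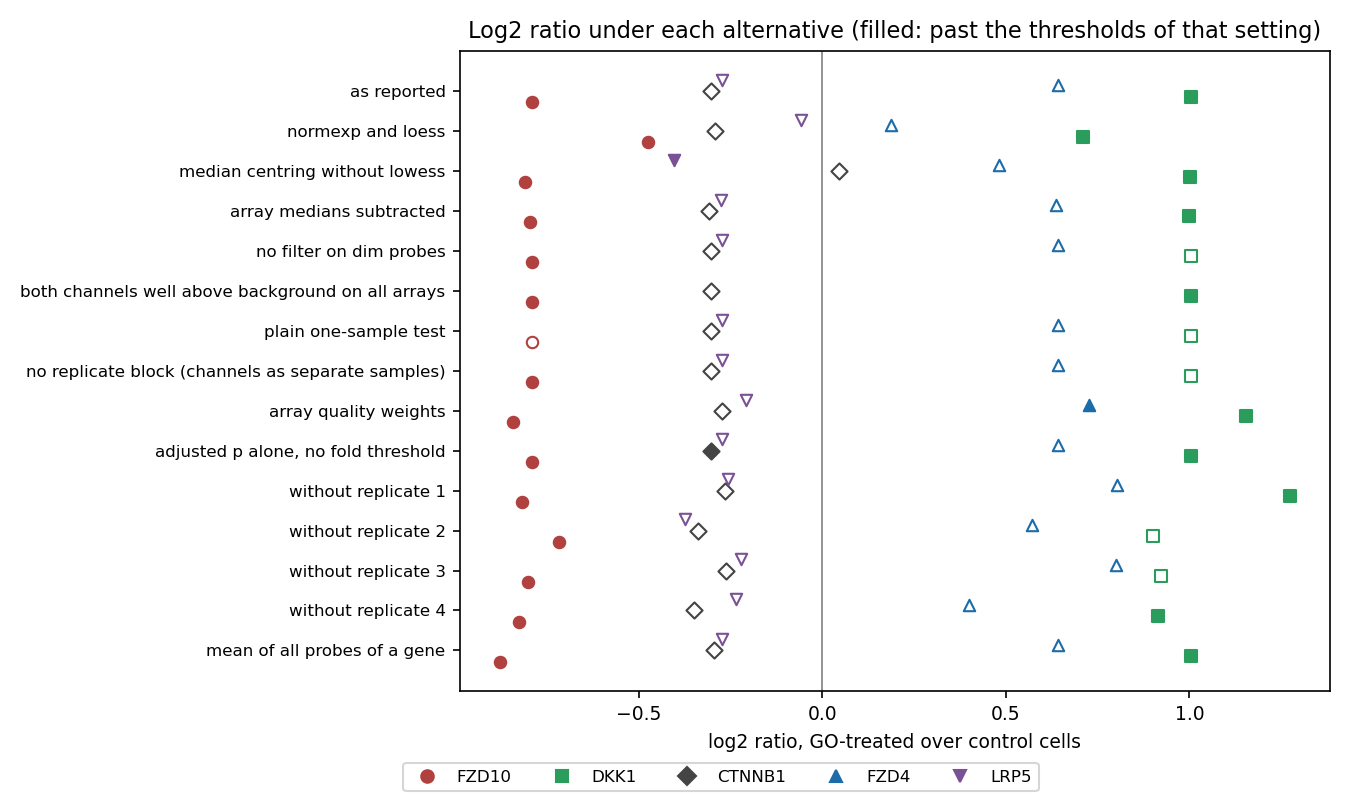
Log2 ratio of *fzd10*, *dkk1*, *ctnnb1*, *fzd4* and *lrp5* as reported and under each alternative setting, with filled symbols where the gene passed the thresholds of that setting. *Fzd10* is filled in 13 of 14 alternatives and *dkk1* in 9 of 14, and *ctnnb1* crosses 0 without lowess normalization. *Fzd4* and *lrp5* have no symbol where both channels had to be well above background.

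A further 9 genes of the same families were named on the array by their description alone and fall outside the 31. They were looked up with values at hand, so their calls are a description. *Tcf7l2*, which encodes a DNA-binding partner of β-catenin, had log2 ratios of 0.57, 0.31, 0.41 and 0.48, with a mean of 0.44 ± 0.11 (adjusted p = 0.00863), the only one of them past both thresholds. With normexp and loess *tcf7l2* was below the fold threshold at 0.34. Its call was also lost with a plain one-sample test (adjusted p = 0.0762) and in limma with the channels as separate samples (adjusted p = 0.189). *Fzd2*, a Frizzled receptor, had log2 ratios of -0.08, -0.39, -0.41 and -0.56, with a mean of -0.36 (adjusted p = 0.0356), below the fold threshold. *Wnt6* had log2 ratios of 0.27, 0.10, 0.33 and 0.27, with a mean of 0.24 (adjusted p = 0.0449), also below that threshold, and with normexp and loess it was at 0.094 (adjusted p = 0.204). *Sfrp2* (mean log2 ratio 0.06, adjusted p = 0.641) and *sfrp4* (-0.49, adjusted p = 0.146) did not pass, and *fzd8*, *lef1*, *wnt3a* and *wnt5a* did not meet the filter.

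Other genes of the pathway were taken from a list of 64, of which 56 were on the array and 42 met the filter. One rose and one fell past both thresholds, that is 2 of 42, again beside 8.7% of all genes, and the median log2 ratio was 0.00. *Pygo1*, a nuclear coactivator of β-catenin, had log2 ratios of 0.50, 0.42, 0.36 and 0.51, with a mean of 0.45 ± 0.07 (adjusted p = 0.0063). *Gpc3*, a cell surface glypican that binds WNTs and Frizzled, had log2 ratios of -1.28, -0.78, -0.67 and -0.84, with a mean of -0.89 ± 0.27 (adjusted p = 0.00514). All 4 arrays had the same sign in both genes. With normexp and loess *pygo1* was at 0.12 (adjusted p = 0.115) and *gpc3* at -0.37, under the fold threshold. The Dishevelled genes and their inhibitors (5 tested), the destruction complex and its regulators (9), ligand release (2), receptor turnover (1), planar cell polarity (5), secreted agonists and their receptors (3) and other secreted inhibitors (1) held no gene past both thresholds, and 14 of the 42 genes had an unadjusted p under 0.05 in limma, again beside 34.8% of all genes.

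The list of genes known as targets of β-catenin and TCF/LEF in various tissues held 24 genes, none of them among the 31, of which 19 were on the array and 14 met the filter. It shares with the pathway list *nkd1*, *rnf43*, *znrf3* and *lgr5*. None of the targets rose past both thresholds and 2 of 14 fell, beside 3.33% of all genes higher and 5.37% lower, while 7 had an unadjusted p under 0.05 in limma (34.8% of all genes), with a median log2 ratio of 0.02 over the list. *Fst*, which encodes the activin and myostatin binder follistatin, had log2 ratios of -0.93, -0.60, -0.51 and -0.35, with a mean of -0.60 ± 0.24 (adjusted p = 0.012). All 4 arrays were below 0 and array 1 was the lowest. With normexp and loess *fst* was at -0.56 (adjusted p = 0.0029), but it did not pass without array 2 (adjusted p = 0.0545). It also did not pass in limma with no filter on dim probes (adjusted p = 0.0816) or with the channels as separate samples (adjusted p = 0.286). The plain one-sample test gave an adjusted p of 0.111. *Fosl1* (log2 ratio 0.35, adjusted p = 0.0199) and *cd44* (0.29, adjusted p = 0.0419), picked after their values were seen, passed the adjusted p alone.

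**Figure D5:**
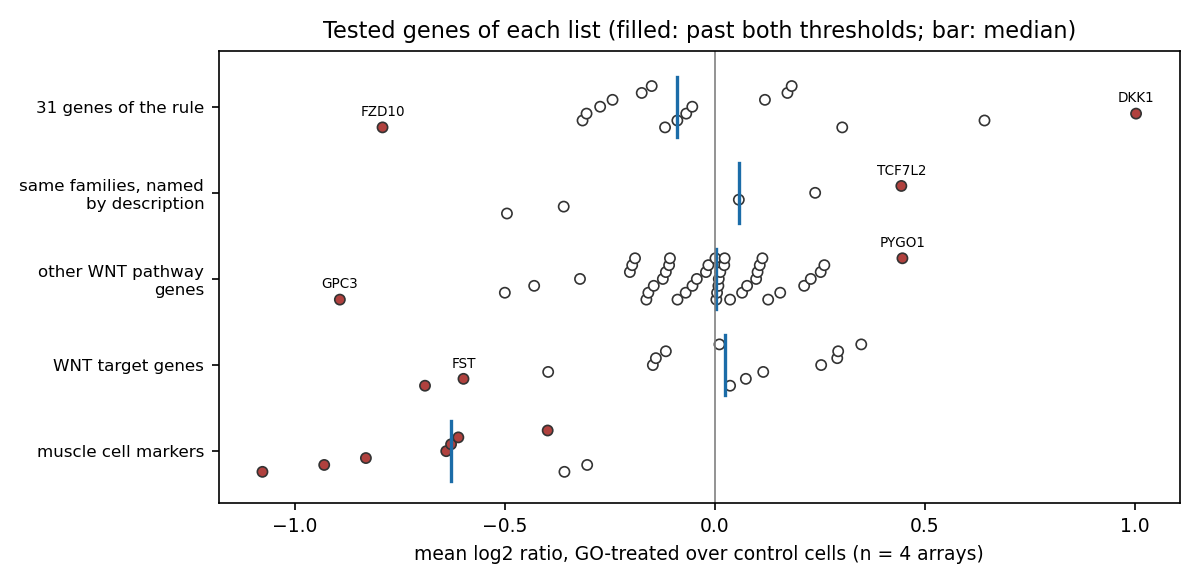
Mean log2 ratio (n = 4 arrays) of the tested genes of each list, with filled points past both thresholds and a blue bar at the list's median. The medians of the 31-gene set, the other pathway genes and the targets lie at -0.09, 0.00 and 0.02, and that of the muscle cell markers at -0.63.

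Muscle cell markers moved beside these results. Of 9 tested, 7 fell past both thresholds (*acta1*, *des*, *myf5*, *myh3*, *myh8*, *myog* and *ncam1*), beside 5.37% of all genes lower, with a median log2 ratio of -0.63 over all 9, and their summed signal was 151550 to 207335 in control and 87915 to 123893 in GO-treated cells. Most of each sum came from the bright probes of *myh3* and *acta1*. Without lowess dye normalization these were at -0.15 and -0.08, 3 markers still fell past both thresholds (*myf5*, *myh8* and *ncam1*), and the median of the 9 was -0.36. The plain one-sample test left 1 of the 9 past both thresholds, although 7 had an unadjusted p under 0.05. With no filter on dim probes the count was 2, without the pairing of channels it was 3 and without array 2 it was 5. With array weights it was 8 and without array 1 it was 9. Fibroblast markers had sums of 275957 to 440123 in control and 285171 to 396993 in GO-treated cells, which overlap, and 1 of 7, *pdgfra*, rose (log2 ratio 0.87, adjusted p = 0.0199). The call of *pdgfra* was lost with normexp and loess, at 0.37, and without array 2 (adjusted p = 0.0741). It was also lost with no filter on dim probes, with the plain one-sample test and without the pairing of channels. Without lowess 4 of the 7 fibroblast markers were higher and 1 lower past both thresholds, with a median of 0.74. The 2 tested leukocyte markers had log2 ratios of -0.28 and 0.11. The part of these markers in the values of *dkk1*, *fzd10*, *gpc3* and *fst* was not tested. Array 1 was farthest from the median ratio in 8 of 17 members (47.1%) and in 41.1% of all genes.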

How the data were processed

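RNA of GO-treated (Cy5) and control (Cy3) cells was compared on 4 two-color Agilent horse arrays of 60-base probes. Per the file headers, the authors used Feature Extraction (version 10.10.1.1, whereas the methods name an earlier one), and the deposited log10 ratios divide processed Cy5 by processed Cy3 signals, which had been detrended and dye-normalized (linear and lowess). The deposited intensity values are processed, background-subtracted, raw mean and local background signals. Where a channel is not above background a surrogate replaces its signal, which draws ratios of dim probes toward 0. Coordinates follow the files (EquCab1), and no genome was used here.

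Log10 ratios were turned into log2. The 1417 control spots and outlier spots were left out, and repeated spots of 50 probes were averaged. The 26832 probes well above background in either channel on all 4 arrays were tested two-sided against 0 (limma version 3.58.1, R version 4.3.3) by lmFit on an intercept and eBayes (prior SD 0.144, prior degrees of freedom 3.60, residual 3), p-values being adjusted over all of them by Benjamini-Hochberg. The methods give the thresholds (adjusted p at most 0.05, fold change at least 1.3) and GeneSpring, but no test. At these thresholds the paper's list of changed genes is far shorter than the calls made here. It names neither *fzd10* nor *dkk1*. The script was tested on simulated data.

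Both channels of an array pair through its ratio: their deviations from the group means correlated by 0.48 to 0.86 within arrays and by -0.54 to 0.24 between arrays (26831 probes). Values in full are given for all tested members and, in the other pathway and target lists, for genes past both thresholds, except that the result of 1 gene of the target list is not reported here. The members and lists, cell type markers included, were chosen with earlier results of these data known. Alternatives were normexp (offset 50) with loess, no lowess, array medians, other filters, a plain one-sample test, no pairing, array weights, no fold threshold, the mean of a gene's probes and leaving out each array. The authors' series table, which holds the same kind of ratio, was not used.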

Additional observations from a re-analysis of the deposited data

Results flagged for a closer look

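The log2 ratio of *dkk1* on array 1 was 0.19, against 1.24 to 1.31 on the other 3 arrays. Its gap to the nearest array was 0.94 of the whole range, above Dixon's critical value for 4 samples. Chance gives a gap above that critical value in about 1 in 20 groups of values, and 17 genes were examined. A gap of 0.94 is rarer than that. Control and GO signals of *dkk1* on array 1 were 121 and 138, both well above background.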

How the results depend on the processing

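Past both thresholds were 2 members, 2 other pathway genes, 2 targets and 2399 probes. With normexp and loess these counts were 2, 0, 1 and 1297, with no filter on dim probes 1, 1, 0 and 908, with the plain one-sample test 0, 0, 0 and 147, and without the pairing of channels (no replicate block) 1, 1, 0 and 370. At an unadjusted p under 0.05 the plain test still had 4 members, 11 other pathway genes and 4 targets, normexp and loess 12 other pathway genes, and the limma fits without the filter and without the pairing 7 and 3 targets. Array weights gave 4 other pathway genes, both channels above background 1 target, and the adjusted p alone 4 targets and 4859 probes. Leaving out 1 array gave 1 to 2 members, 2 to 3 other pathway genes, 0 to 2 targets and 1566 to 2430 probes, with 1 member and 0 targets without array 2 (5 targets at an unadjusted p under 0.05 in limma) and 1 member and 1 target without array 3. Signs turned in 4 genes that had not passed both thresholds: *wnt11* (0.0078) and *wnt3* (0.0018) with normexp and loess, *ctnnb1* (0.045) without lowess, and *lrp6* (0.0045) with the mean of its probes. The cause was not tested. *Lrp5* and *fzd4* passed under 1 alternative each. *Ctnnb1* passed only where the fold threshold was dropped, which its adjusted p of 0.0333 in the main limma fit already fixed. With 1 array left out its adjusted p was 0.0465 to 0.123. *Fzd4*, *lrp5*, *wnt10b* and *dkk2* have no test where both channels had to be above background. Signal over background limits the dim genes: 14 of 31 genes did not meet the filter, and normexp, which adds an offset, drew *fzd10* from -0.79 to -0.47 and *dkk1* from 1.00 to 0.71.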
